A study of Arabidopsis thaliana with 6 samples.

Results

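The CC-type glutaredoxins, also called ROXY proteins, are small thiol oxidoreductases found in land plants, and 10 of their genes were followed in a comparison of 2 Arabidopsis thaliana genotypes. The 10 genes are the cluster AT4G15660 to AT4G15700 on chromosome 4 (5 genes) and AT5G18600, AT3G62950, AT1G28480, AT3G02000 and AT5G14070, out of 38192 genes in the count table. They were chosen by name, from a family in which members stood out for their genotype fold changes in these same libraries. Their own genotype differences are therefore given as a description, without p-values, and the calls counted for them below support nothing. The other 11 genes of the family are set beside them.

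The wild type was the accession Col and the mutant was cpl2-2, an allele that the labels call a knockout of CPL2, with 3 libraries of each genotype. CPL2 belongs to a family of phosphatase-like proteins known for acting on the tail of the large RNA polymerase II subunit. RNA came from the aerial parts of seedlings 9 days old, grown under 16 h of light and 8 h of dark at 23 ± 2 °C with no further treatment named. The mutant stands for 1 allele, and the labels give neither the position of its lesion nor how many plants went into a library.

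Library totals ran from 18299294 to 21098728 counts. CPL2 itself (AT5G01270) had 391, 378 and 393 counts in wild type against 198, 229 and 222 in cpl2-2, so transcript from the gene was still counted in the mutant. A level below is a count scaled to a common library total (CPM), as mean ± SD over 3 libraries. A fold change is log2 of cpl2-2 over wild type, with its standard error (SE). A gene was called changed at an adjusted p under 0.05 in edgeR's quasi-likelihood test over all 19302 genes tested. The 8 leaf markers summed to 47140 to 48510 CPM in wild type and 39300 to 41000 CPM in cpl2-2, sums led by RBCS1A (28330 and 22200 CPM). Singly 5 of them fell, 2 rose (LHCB2.3, log2 change 2.16, and LHCB2.2, 0.46) and RBCS2B was not called. The 8 root markers summed to 306 to 321 and 299 to 324 CPM, nearly all of it PYK10, and 7 of them averaged under 1 CPM, with the root hair expansins EXPA7 and EXPA18 at 0 in every library. CASP1, an endodermis gene and the only other root marker tested, rose from 0.538 ± 0.167 to 1.29 ± 0.315 CPM (1.25 with SE 0.42, edgeR adjusted p = 0.0217), a call lost without WT replicate 1 or 2 or cpl2-2 replicate 3 (adjusted p = 0.087 to 0.14); it overlaps AT2G36090 on the opposite strand. The 12 floral organ and anther markers summed to 4.34 to 5.51 CPM in wild type and 15.2 to 17.6 CPM in cpl2-2, with the anther regulators TDF1, AMS and MS1 at 0 in every library. Of the 12, 10 averaged under 1 CPM and only 3 were tested. Of those 3, 2 were called higher and 1 was not called (log2 changes of the 3 from 0.91 to 2.06). The part of these marker differences in the results below was not tested. A count of 0 allowed up to 3 counts, or 0.142 to 0.160 CPM depending on the library.

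Glutaredoxins use glutathione to reduce disulfides or to remove glutathione from proteins, and the CC-type class is named for the pair of cysteines that opens its active site. Several of its proteins bind TGA transcription factors in the nucleus, and many carry a C-terminal ALWL motif that contacts TOPLESS co-repressors. ROXY1 and ROXY2 are known for petal and anther development, GRX480 for the salicylate response, and the chromosome 4 cluster for its induction by nitrate and cytokinin and for slowing root growth. The pair CEPD1 and CEPD2 is known as a shoot-to-root signal of nitrogen demand.

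The sequences below show how alike the copies are, since reads of near-identical genes can be split between them. All 10 genes have 1 exon. The 5 clustered genes lie head to tail on the plus strand between 8925571 and 8938124 on chromosome 4, a span of 12554 bases, with 0 other annotated genes between the first and the last. Coding sequences within the cluster were 88.3 to 93.2% identical, and their predicted proteins of 102 residues were 91.2 to 95.1% identical. AT5G18600 came closest among the other genes, with 68.9 to 72.5% coding identity to the clustered genes, followed by AT3G62950 with 56.2 to 59.6%. AT1G28480, AT3G02000 and AT5G14070 matched the cluster at 45.7 to 48.7% of coding bases, while AT3G02000 and AT5G14070 (ROXY1 and ROXY2) matched each other at 74.8%. Each line gives 48 coding bases around the active site from the RefSeq TAIR10.1 genome, 5′ to 3′ on the gene's strand, with the active-site codons in capitals.
AT4G15660 (chr4:8925970-8926017, plus strand): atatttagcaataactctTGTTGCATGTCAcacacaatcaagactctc
AT4G15670 (chr4:8929279-8929326, plus strand): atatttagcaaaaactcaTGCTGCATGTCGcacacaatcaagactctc
AT4G15680 (chr4:8931855-8931902, plus strand): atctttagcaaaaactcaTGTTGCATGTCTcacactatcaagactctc
AT4G15690 (chr4:8934486-8934533, plus strand): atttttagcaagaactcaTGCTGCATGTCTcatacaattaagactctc
AT4G15700 (chr4:8937587-8937634, plus strand): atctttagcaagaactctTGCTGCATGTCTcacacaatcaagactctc
AT5G18600 (chr5:6183685-6183732, minus strand): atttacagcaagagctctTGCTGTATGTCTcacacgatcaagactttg
AT3G62950 (chr3:23266345-23266392, plus strand): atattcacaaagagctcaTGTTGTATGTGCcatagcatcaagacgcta
AT3G02000 (chr3:332749-332796, minus strand): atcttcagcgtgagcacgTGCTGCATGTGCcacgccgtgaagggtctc

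In the 5 clustered genes and AT5G18600 the last of the capital codons encodes serine, and in the other 4 genes it encodes cysteine. Pairs of clustered genes differed at 4 to 7 of these 48 bases, and all 5 stretches were distinct. An exact 50-base match to another place in the genome existed for 0.613 to 4.74% of the 50-base windows of each clustered gene and for 0% of those of each other member. At 100 bases no window of the 10 genes had an exact match elsewhere. The proteins of 8 of the 10 genes end in the ALWL motif, all but AT5G18600 and AT3G62950, against 1 of the other 11 CC-type proteins.

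The windows of 250 bases before the transcription start of the clustered genes also shared sequence. The longest run present in all 5 was 11 bases. On either strand it was in 6 of 38189 such windows genome-wide, those of the 5 clustered genes and of 1 gene outside the family. Since 5 of the 6 were fixed by the choice of the run, the count is no measure of its rarity. The run began 47 bases before the start of AT4G15660 and 150, 152, 242 and 233 bases before the starts of AT4G15670, AT4G15680, AT4G15690 and AT4G15700. The lines show it in capitals with its surroundings (RefSeq TAIR10.1). The flanks are closest between AT4G15660 and AT4G15670 and differ at more bases in the other copies.
AT4G15660 (chr4:8925504-8925563, plus strand): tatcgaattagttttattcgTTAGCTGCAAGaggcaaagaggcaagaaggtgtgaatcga
AT4G15670 (chr4:8928861-8928920, plus strand): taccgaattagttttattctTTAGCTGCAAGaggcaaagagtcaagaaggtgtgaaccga
AT4G15680 (chr4:8931445-8931504, plus strand): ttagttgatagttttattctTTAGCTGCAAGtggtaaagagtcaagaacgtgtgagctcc
AT4G15690 (chr4:8934046-8934093, plus strand): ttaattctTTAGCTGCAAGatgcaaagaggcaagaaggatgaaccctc
AT4G15700 (chr4:8937108-8937164, plus strand): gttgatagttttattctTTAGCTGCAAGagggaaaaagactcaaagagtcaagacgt

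The core of the element bound by TGA factors, TGACG on either strand, was in 0 of the 5 cluster windows and in 1 of the 10 members' windows, that of AT1G28480, 211 bases before its start. It was in 2 of the 11 windows of the other CC-type genes and in 18% of the 38189 windows of the genome. AGATT, the core bound by cytokinin-activated type-B response regulators, was in 5 of 5 cluster windows and 9 of 10 members' windows on either strand, and in 63.4% of all windows. The G-box CACGTG was in none of the 21 family windows and in 5.38% of all windows. These are letter matches in short windows, not measured binding.

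The 5 clustered genes encode close copies of a monothiol glutaredoxin, and for 4 of the 5 all mutant libraries lay below all wild-type libraries. That held for 19.2% of all genes tested. Summed over the cluster, the counts were 327, 355 and 336 in wild type against 109, 136 and 96 in cpl2-2. Every mutant library was thus below every wild-type library. The summed level went from 16.6 ± 0.614 to 5.64 ± 0.909 CPM (SD, n = 3), a 2.95-fold lower level or 33.9% of wild type. The log2 difference was -1.57. The sum does not depend on how reads were divided among the copies. In shoot tissue as a whole, fewer cells with the transcript and less transcript per cell cannot be told apart.

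**Figure D1:**
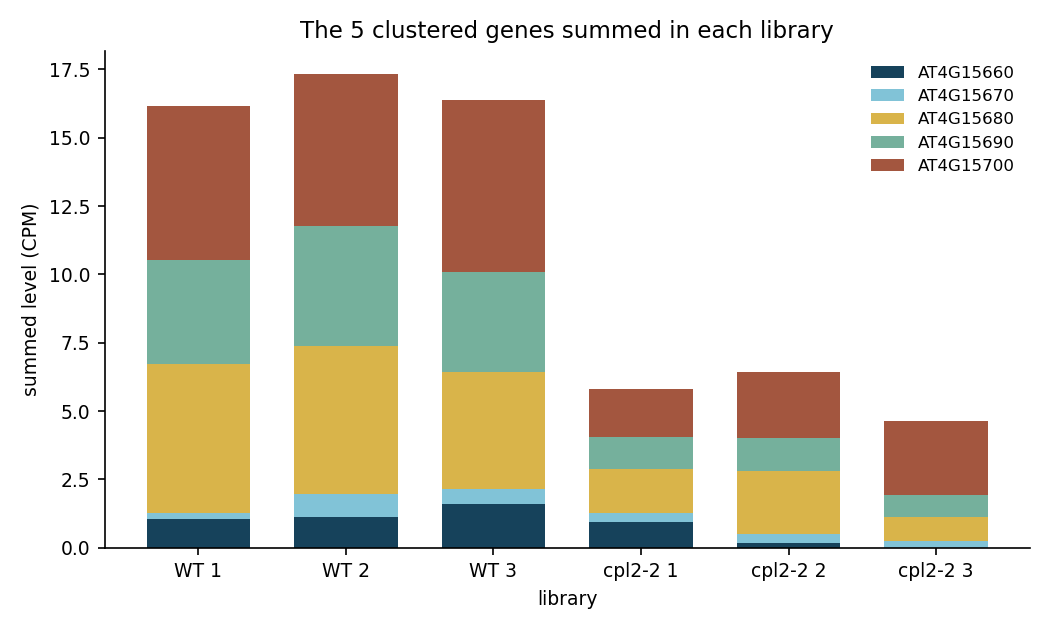
Stacked bars of the summed level (CPM, linear axis from 0) of the 5 clustered genes in each of the 6 libraries, coloured by gene. The 3 wild-type bars stand between 16.2 and 17.3 CPM and the 3 cpl2-2 bars between 4.66 and 6.45 CPM.

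AT4G15690 (GRXS5; chromosome 4, 8934296 to 8934961) had 77, 90 and 75 counts in wild type and 22, 26 and 17 in cpl2-2. The groups were far apart, with the highest mutant library at 1.23 CPM and the lowest wild-type library at 3.65 CPM. Its log2 fold change of -1.87 (SE 0.27) was the 16th lowest of the 19302 genes tested.

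AT4G15680 (GRXS4; 8931617 to 8932317) had 110, 111 and 88 counts in wild type and 30, 48 and 18 in cpl2-2. The groups did not overlap, and the mutant libraries spread more widely, from 0.873 to 2.28 CPM. The level went from 5.05 ± 0.657 to 1.58 ± 0.702 CPM (log2 fold change -1.67, SE 0.25).

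AT4G15700 (GRXS3, 8937358 to 8938124) had the highest wild-type mean of the cluster per kb, 7.60 ± 0.520 CPM per kb, overlapping AT4G15680 at 7.20 ± 0.937. The counts of AT4G15700 were 114, 114 and 129 in wild type and 33, 51 and 56 in cpl2-2. All mutant libraries were below all wild-type libraries. The level went from 5.83 ± 0.399 to 2.30 ± 0.490 CPM (log2 fold change -1.33, SE 0.21). Without cpl2-2 replicate 3 it was -1.47, against -1.37 for AT4G15680.

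AT4G15660 (GRXS8; 8925571 to 8926510) was near the limit of detection, with 21, 23 and 33 counts in wild type and 18, 4 and 0 in cpl2-2. The mutant libraries disagreed among themselves: the first, at 0.960 CPM, stood just under the lowest wild-type library at 1.04 CPM, and the third had no count. The log2 fold change of -1.75 (SE 0.54) became -3.63 without cpl2-2 replicate 1 and -1.16 without cpl2-2 replicate 3.

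AT4G15670 (GRXS7; 8929031 to 8929813) had 5, 17 and 11 counts in wild type and 6, 7 and 5 in cpl2-2, too few to enter the test. Its groups overlapped. The summed mutant counts were 0.553 of the wild-type counts, with an exact 95% interval of 0.293 to 1.01 that covers counting error only.

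The division of the cluster's counts among its copies varied more between the mutant libraries than between the wild-type libraries for AT4G15660, AT4G15680 and AT4G15700. In wild type AT4G15700 held 35.1% ± 3.15, AT4G15680 30.4% ± 3.81 and AT4G15690 23.7% ± 1.53 of the cluster's counts (SD, n = 3). In cpl2-2 these shares were 42.0% ± 14.6, 27.2% ± 8.28 and 19.0% ± 1.24. The share of AT4G15700 in the mutant ranged from 30.3 to 58.3% between libraries, which spans the wild-type values. AT4G15660 held 6.42, 6.48 and 9.82% in wild type and 16.5, 2.94 and 0% in cpl2-2, on both sides of the wild-type values. The share of AT4G15690 was 22.3 to 25.4% in wild type and 17.7 to 20.2% in cpl2-2, lower without overlap. That of AT4G15670 was 1.53 to 4.79% in wild type and 5.15 to 5.51% in cpl2-2, higher without overlap, on 5 to 7 counts per mutant library. The 3 mutant libraries held only 96 to 136 cluster counts each, and no shift in the division was tested.

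The genes on either side of the cluster, the 5 nearest upstream and the 5 nearest downstream, were compared over all genes tested. Of these 10 genes 7 were tested, 0 rose (1 with library totals as scaling) and 2 fell. Over all genes tested 14.1% rose and 13.3% fell. Among the neighbours 3 had an unadjusted p under 0.05 and DESeq2 called 2. AT4G15630, 1 of the 2, read 79.7, 70.1 and 78.8 CPM in wild type and 58.2, 60.8 and 55.9 CPM in cpl2-2 (log2 change -0.39 with SE 0.06, edgeR adjusted p = 2.8e-07). AT4G15640, the other, had a log2 fold change of -0.35 (SE 0.12, edgeR adjusted p = 0.0178), but adjusted p = 0.0572 with library totals as scaling and 0.224 without cpl2-2 replicate 1. AT4G15620 stood at 71.6 ± 1.44 and 74.1 ± 1.01 CPM (adjusted p = 0.514, edgeR). AT4G15610 had the highest log2 fold change of the 7, 0.88, opposite to the clustered genes, and was not called. It was called with library totals as scaling (0.95, edgeR adjusted p = 0.0349) and without WT replicate 1 (1.12, edgeR adjusted p = 0.0378). The median log2 fold change of the 7 tested neighbours was 0.05, against -0.002 for all genes tested. The 4 tested clustered genes lay between -1.87 and -1.33, but they were chosen with their differences known, so the contrast with the neighbours is description only.

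**Figure D2:**
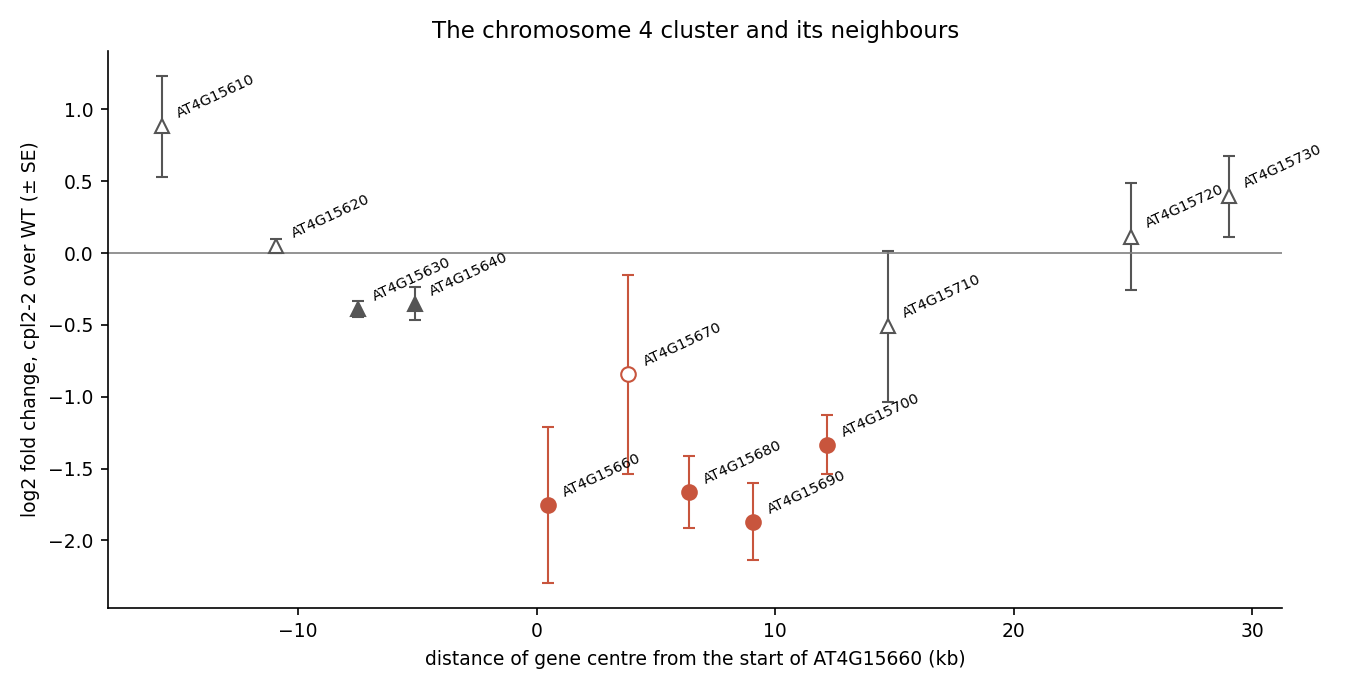
Log2 fold change of cpl2-2 over wild type (vertical axis, bars ± SE) against the distance of each gene's centre from the start of AT4G15660 in kb, for clustered genes (circles) and the tested neighbours (triangles); filled symbols are genes called in edgeR, and the open circle is AT4G15670 from the fit without a filter. The 4 tested clustered genes lie between -1.87 and -1.33, and the 7 tested neighbours between -0.51 and 0.88.

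AT5G18600 (GRXS2; chromosome 5, 6183166 to 6184038, minus strand), which shares the serine-ending active site with the cluster, was by far the most abundant of the family. It had 1368, 1395 and 1324 counts in wild type and 710, 772 and 830 in cpl2-2. All 3 mutant libraries were below all wild-type libraries, and replicates of a genotype varied by under 5% (coefficients of variation 2.89 and 4.86%). The level went from 66.7 ± 1.93 to 38.3 ± 1.86 CPM, or 57.3% of wild type (log2 fold change -0.80, SE 0.06). With 710 or more counts in every library, its value is the most precise of the 10 genes.

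AT3G62950 (GRXC11; chromosome 3, 23266227 to 23267090, plus strand) had 106, 93 and 74 counts in wild type and 40, 34 and 34 in cpl2-2. The groups did not overlap. The level went from 4.46 ± 0.820 to 1.80 ± 0.291 CPM (log2 fold change -1.31, SE 0.24). Its neighbours on chromosome 3 include GRXS6 (AT3G62930) and GRXC14 (AT3G62960), described with the rest of the family below.

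ROXY2 (AT5G14070, GRXC8; chromosome 5, 4541780 to 4542585, plus strand), which acts with ROXY1 in anther development, had 30, 32 and 26 counts in wild type and 22, 10 and 15 in cpl2-2. The highest mutant library, at 1.17 CPM, lay just under the lowest wild-type library, at 1.27 CPM. The log2 fold change was -0.87 (SE 0.39). It ran from -1.25 to -0.60 when 1 library was left out.

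ROXY1 (AT3G02000, GRXC7; chromosome 3, 332275 to 333072, minus strand), needed for petal initiation, had 18, 20 and 20 counts in wild type and 11, 14 and 21 in cpl2-2. The groups overlapped, since the third mutant library was the highest of all 6 at 1.02 CPM. The log2 fold change was -0.32 (SE 0.42), and it was -0.59 without cpl2-2 replicate 3 and -0.17 without cpl2-2 replicate 1. The gene overlaps AT3G01990 on the opposite strand, and without a stated strand setting reads of the pair cannot be told apart.

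GRX480 (AT1G28480, GRXC9, also ROXY19; chromosome 1, 10013434 to 10014256, minus strand), which binds TGA factors and is induced by salicylate, was the only one of the 10 with a higher mean in cpl2-2. It had 10, 4 and 6 counts in wild type and 10, 10 and 16 in cpl2-2. The groups overlapped, at 0.195 to 0.494 CPM and 0.474 to 0.776 CPM. The log2 fold change was 0.85 (SE 0.55), with 0.59 and 1.26 as the extremes when 1 library was left out.

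Of the 10 genes, 9 were tested, 6 were called lower, 0 were called higher and 3 were not called. Over all genes tested 13.3% were called lower and 14.1% higher. In 7 of the 10 genes, counting the untested one, every mutant library was below every wild-type library, as in 19.2% of all genes tested. The members were chosen with these differences known, so the counts describe them and carry no further weight. The members called were the 4 tested clustered genes, AT5G18600 and AT3G62950. DESeq2 called 5 of them, without AT4G15660.

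**Figure D3:**
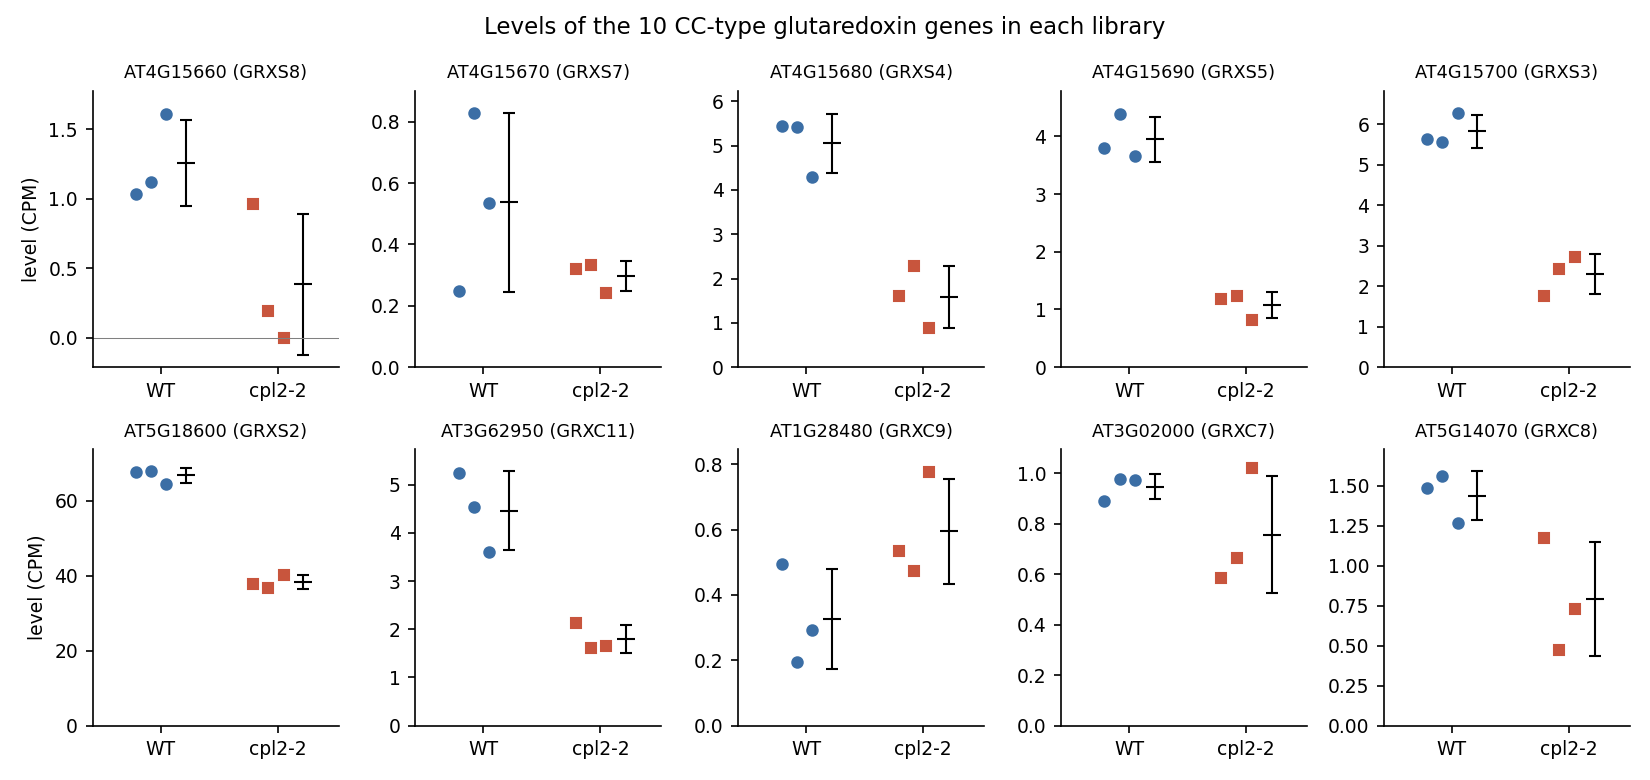
Level in CPM (linear axes, own scale per gene) of each of the 10 genes in the 3 wild-type libraries (blue circles) and the 3 cpl2-2 libraries (red squares), with mean and SD in black. In 7 panels the squares lie below all circles; they overlap for AT4G15670, AT1G28480 and AT3G02000.

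Per kb of gene, AT5G18600 led the 21 CC-type genes in both genotypes, at 76.4 ± 2.21 CPM per kb in wild type and 43.8 ± 2.13 in cpl2-2. GRXS11 (AT1G06830, CEPD1) and GRXC13 (AT2G47880, CEPD2) followed in wild type at 33.9 ± 4.42 and 33.6 ± 0.742 CPM per kb, with overlapping libraries. GRXS10 (AT3G21460) came next at 10.9 ± 0.370 CPM per kb; its libraries overlapped neither with those above nor with those below it. From the next gene, AT4G15700 at 7.60 ± 0.520 CPM per kb, the order ran down to AT1G28480 at 0.398 ± 0.185 CPM per kb. Over this stretch the mean ± SD ranges of neighbours in the order overlapped in every case.

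The order differed in cpl2-2. AT4G15690 was number 9 of the 21 in wild type, at 5.93 ± 0.583 CPM per kb, and number 14 in cpl2-2, at 1.62 ± 0.331. GRXC6 (AT4G33040) was number 8 in wild type, at 6.30 ± 0.371 CPM per kb, and number 4 in cpl2-2, at 12.1 ± 0.771. GRXC10 (AT5G11930) was number 12 in wild type and number 5 in cpl2-2.

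Summed without regard to length, the 21 genes gave 166.7, 165.2 and 159.2 CPM in wild type and 118.0, 115.6 and 121.8 CPM in cpl2-2. The 10 chosen genes gave 91.9, 92.6 and 87.0 CPM in wild type and 48.1, 46.3 and 49.1 CPM in cpl2-2. The other 11 genes gave 74.8, 72.5 and 72.2 CPM in wild type and 69.8, 69.3 and 72.7 CPM in cpl2-2. The lower family total in cpl2-2 lay mostly in the 10 chosen genes, and most of that in AT5G18600. AT5G18600 made up 40.5 to 41.2% of the family's CPM in wild type and 31.7 to 33.1% in cpl2-2. Since the 10 genes were chosen with their differences known, this split between them and the other 11 describes the choice and carries no weight.

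Among all genes tested, 14.1% rose and 13.3% fell. Of the 11 other CC-type genes, all tested, 3 rose, 3 fell and 5 were not called, with a median log2 fold change of -0.12. DESeq2 called 5 of them. GRXC6 read 7.46, 8.10 and 8.38 CPM in wild type and 16.0, 14.2 and 15.8 CPM in cpl2-2, a rise in every mutant library (log2 change 0.94 with SE 0.12, edgeR adjusted p = 5.3e-09). GRXC10 read 2.82, 3.27 and 2.14 CPM in wild type and 5.07, 5.98 and 6.50 CPM in cpl2-2 (1.09 with SE 0.20, edgeR adjusted p = 2.6e-05). Both lay wholly above wild type, opposite to the clustered genes. GRXS1 (AT1G03020) rose from 0.670 ± 0.192 to 1.49 ± 0.0945 CPM (1.15 with SE 0.39, edgeR adjusted p = 0.0217), a call on 11 to 30 counts a library that was lost without WT replicate 2 or 3 or cpl2-2 replicate 1 or 3 (adjusted p = 0.0527 to 0.0954).

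CEPD2 (GRXC13), which carries the nitrogen-demand signal from shoot to root, read 22.7, 22.1 and 23.1 CPM in wild type and 14.7, 14.1 and 18.2 CPM in cpl2-2 (log2 change -0.53 with SE 0.10, edgeR adjusted p = 1.4e-05). All mutant libraries were lower, and the gene overlaps AT2G47885 on the opposite strand. Its partner CEPD1 (GRXS11) had overlapping levels of 18.7 ± 2.43 and 17.2 ± 0.812 CPM and did not pass (-0.12 with SE 0.10, edgeR adjusted p = 0.404). GRXS10 fell from 7.35 ± 0.249 to 4.62 ± 1.34 CPM (-0.67 with SE 0.18, edgeR adjusted p = 0.00254). GRXS6 (AT3G62930) fell from 3.20 ± 0.121 to 1.82 ± 1.06 CPM (-0.80 with SE 0.28, edgeR adjusted p = 0.0271). Its second mutant library, at 3.04 CPM, was close to wild type. Without that library the adjusted p was 0.000404, without any 1 of the other libraries it was 0.0540 to 0.175, and DESeq2 gave 0.0607.

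The 5 uncalled genes were GRXS9 (AT2G30540; log2 change -0.73 with SE 0.30, edgeR adjusted p = 0.0599), GRXC12 (AT2G47870; -0.49, SE 0.30), CEPD1, GRXC14 (AT3G62960; -0.02, SE 0.21) and GRXS13 (AT1G03850; 0.31, SE 0.29). On chromosome 3 the 3 neighbours thus read differently: AT3G62950 at 40.3% of wild type, GRXS6 with 1 library near wild type, and GRXC14 at 3.67 ± 0.392 and 3.63 ± 0.565 CPM.

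**Figure D4:**
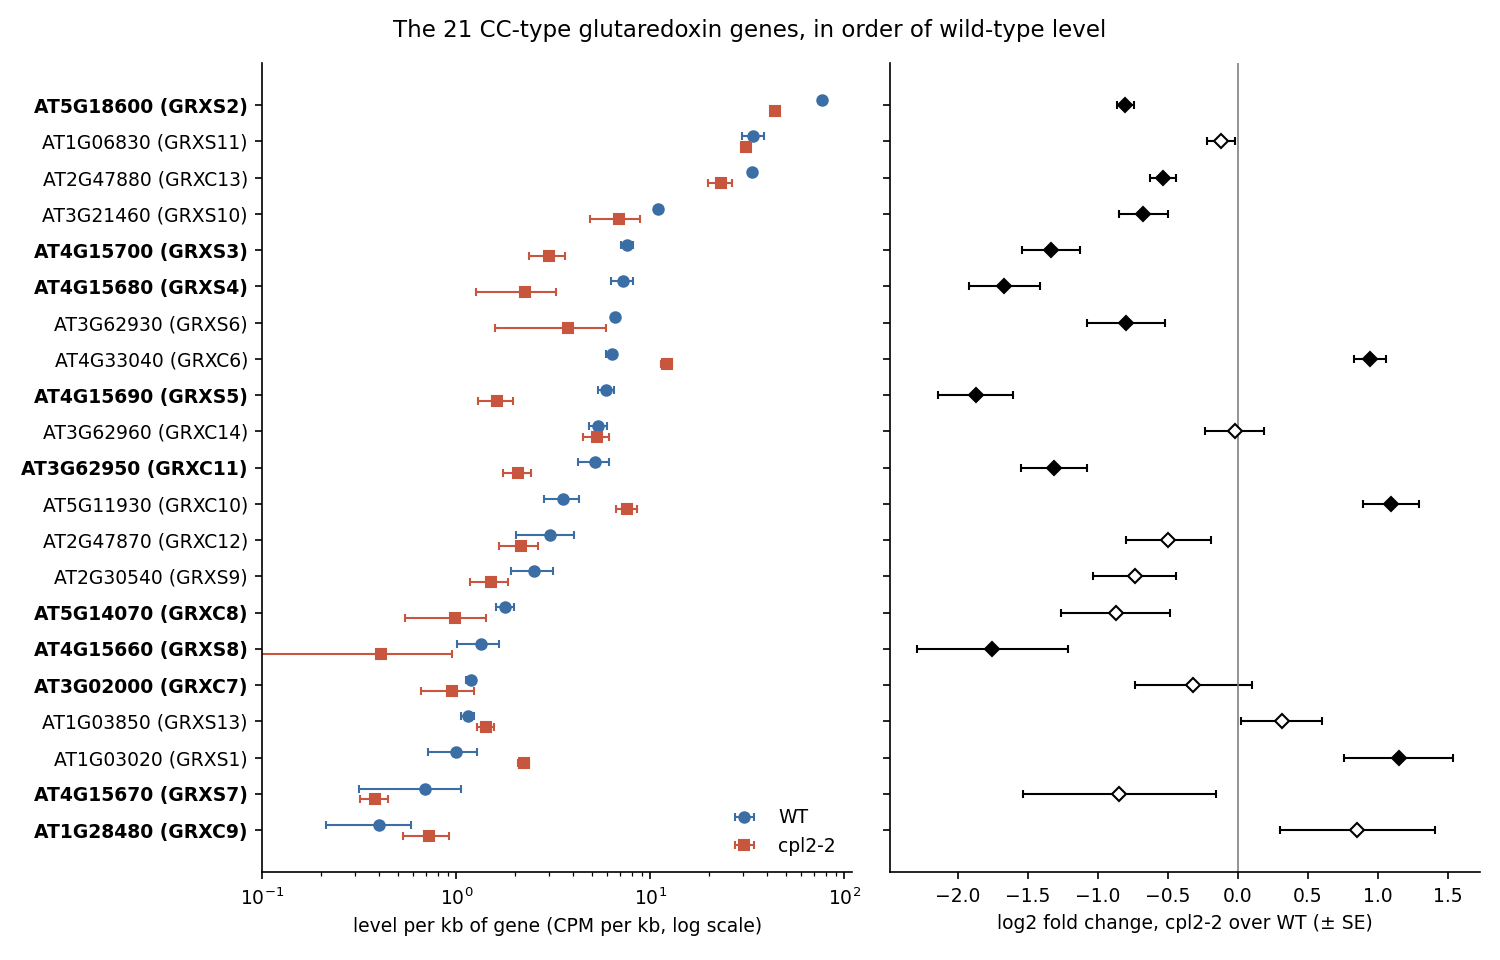
Left, level per kb of the 21 CC-type genes (CPM per kb, log axis; mean ± SD of 3 libraries) in wild type (circles) and cpl2-2 (squares), ordered by wild-type level with the 10 chosen genes in bold; the cpl2-2 bar of AT4G15660 leaves the axis since its SD exceeds its mean. Right, log2 fold change ± SE, filled where called in edgeR; AT4G15670 is from the fit without a filter, and the called values run from -1.87 for AT4G15690 to 1.15 for GRXS1.

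The glutaredoxins of the other classes, CPYC and CGFS, act in general thiol reduction and iron-sulfur cluster transfer. Of these 10 genes, all tested, 2 rose, 0 fell and 8 were not called, where 14.1% of all genes tested rose and 13.3% fell. In this list 4 had an unadjusted p under 0.05. DESeq2 called 1. GRXC2 rose from 230.9 ± 4.40 to 263.1 ± 1.58 CPM (log2 change 0.19 with SE 0.03, edgeR adjusted p = 1.0e-05). GRXS17 had a log2 fold change of 0.15 (SE 0.06, edgeR adjusted p = 0.0492), a call lost with DESeq2 size factors, without the filter on low counts, with the replicate block, in DESeq2 and without WT replicate 1 or 3 or cpl2-2 replicate 2 or 3. All 10 lay between -0.15 and 0.19, a far narrower range than the CC-type genes. Their SEs were also smaller, at most 0.092 (GRXC1) against up to 0.55 (GRX480) for the tested CC-type genes. The CC-type genes also include the 10 chosen with their differences known. The part of counting noise in the wider range was not tested.

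TGA factors are the DNA-binding partners of CC-type glutaredoxins, and NPR and TOPLESS-family proteins act with them. Of these 21 genes 19 were tested, 3 rose and 1 fell, where 14.1% of all genes tested rose and 13.3% fell. The 3 that rose encode TOPLESS-related co-repressors. In the same family TPL (log2 change 0.09 with SE 0.05, edgeR adjusted p = 0.21) and TPR2 (0.04 with SE 0.07, edgeR adjusted p = 0.735) were not called. TPR4 (AT3G15880) read 45.7, 49.5 and 45.3 CPM in wild type and 74.3, 74.8 and 80.0 CPM in cpl2-2 (log2 change 0.71 with SE 0.06, edgeR adjusted p = 2.8e-14). TPR3 rose from 15.8 ± 1.17 to 26.9 ± 1.80 CPM (0.77 with SE 0.09, edgeR adjusted p = 1.1e-09). Both genes overlap others on the opposite strand. TPR1 rose by less, from 28.1 ± 0.609 to 33.1 ± 2.11 CPM (0.23 with SE 0.07, edgeR adjusted p = 0.0115), and its adjusted p was 0.103 without cpl2-2 replicate 2. TGA6, of the TGA class that GRX480 binds, fell from 6.58 ± 0.432 to 4.45 ± 0.826 CPM (-0.56 with SE 0.17, edgeR adjusted p = 0.0109). It overlaps genes on the opposite strand, and its adjusted p was 0.0528 without WT replicate 2 and 0.0661 without cpl2-2 replicate 2.

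Detoxification genes under TGA control, which GRX480 is known to repress when overproduced, were 10 in number. Of these 7 were tested, 3 rose, 0 fell and 4 had an unadjusted p under 0.05. The shares over all genes tested were 14.1% rising and 13.3% falling. CYP81D8, a cytochrome P450 gene, rose from 1.21 ± 0.293 to 2.59 ± 0.628 CPM (log2 change 1.10 with SE 0.30, edgeR adjusted p = 0.00414). NAC032 rose from 4.91 ± 0.845 to 7.42 ± 0.662 CPM (0.60 with SE 0.16, edgeR adjusted p = 0.00442). GSTU7, a glutathione transferase gene, rose from 9.71 ± 0.403 to 12.6 ± 1.08 CPM (0.38 with SE 0.12, edgeR adjusted p = 0.0117), but its adjusted p was 0.0515 without WT replicate 1 and 0.0894 without cpl2-2 replicate 2, and it overlaps genes on the opposite strand. DESeq2 called 3 genes of this list.

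Nitrate induces the chromosome 4 cluster, and 33 genes of nitrate uptake, reduction and response were compared. Of these 29 were tested, 12 rose and 4 fell, with a median log2 fold change of 0.16. Over all genes tested 14.1% rose and 13.3% fell. NIA1, a nitrate reductase gene, read 13.1, 15.1 and 14.1 CPM in wild type and 42.8, 45.3 and 46.4 CPM in cpl2-2 (log2 change 1.67 with SE 0.08, edgeR adjusted p = 9.6e-23). The second nitrate reductase gene, NIA2, rose from 215.9 ± 4.19 to 347.7 ± 5.96 CPM (0.69 with SE 0.03, edgeR adjusted p = 1.3e-22). All mutant libraries lay above all wild-type libraries for both genes, opposite to the clustered genes. The phloem nitrate transporter gene NRT1.7 rose from 95.4 ± 0.933 to 141.1 ± 2.32 CPM (0.56 with SE 0.04, edgeR adjusted p = 1.9e-15). BT1, a BTB-domain scaffold gene, rose from 12.02 ± 1.26 to 21.9 ± 0.717 CPM (0.87 with SE 0.10, edgeR adjusted p = 8.3e-10). The 4 genes that fell were the scaffold gene BT2 (-0.46), HHO3 (AT1G25550, -0.42), LBD37 (-0.31) and the nitrate transceptor gene NRT1.1 (-0.15). With library totals as scaling NRT1.1 was not called (-0.09, edgeR adjusted p = 0.0906) and 3 fell.

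Type-A response regulators are primary targets of cytokinin signalling, which also induces the chromosome 4 cluster. Of 10 genes 8 were tested, 0 rose (1 with library totals as scaling) and 5 fell, where 14.1% of all genes tested rose and 13.3% fell. The median log2 fold change was -0.46 against -0.002 over all genes tested. Of the 8 genes 6 had an unadjusted p under 0.05, and DESeq2 called 5. ARR4 read 92.8, 87.3 and 86.1 CPM in wild type and 73.3, 67.1 and 58.7 CPM in cpl2-2 (log2 change -0.42 with SE 0.06, edgeR adjusted p = 6.1e-08). All its mutant libraries were below wild type. ARR9 fell from 22.0 ± 3.43 to 15.6 ± 1.98 CPM (-0.49 with SE 0.10, edgeR adjusted p = 0.000162). ARR6 fell from 9.64 ± 1.33 to 6.02 ± 0.325 CPM (-0.68 with SE 0.14, edgeR adjusted p = 0.000199). Both overlap a gene on the opposite strand. ARR5 (AT3G48100) fell from 7.54 ± 0.594 to 4.97 ± 0.911 CPM (-0.60 with SE 0.16, edgeR adjusted p = 0.00402). ARR15 (AT1G74890) fell from 4.91 ± 0.776 to 3.29 ± 0.539 CPM (-0.58 with SE 0.20, edgeR adjusted p = 0.0267). That call was lost with library totals as scaling (edgeR adjusted p = 0.051), without WT replicate 2 (0.163) and without cpl2-2 replicate 3 (0.128).

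Glutaredoxins draw their electrons from glutathione, and h-type thioredoxins act beside them in the cytosol. Of these 11 genes, all tested, 4 rose and 2 fell, beside 14.1% rising and 13.3% falling over all genes tested. TRX5 (AT1G45145, thioredoxin h5), known for acting on the TGA partner NPR1, read 10.3, 10.4 and 9.55 CPM in wild type and 40.5, 47.7 and 45.9 CPM in cpl2-2 (log2 change 2.15 with SE 0.09, edgeR adjusted p = 1.3e-25). The mutant libraries stood far above wild type. The glutathione reductase gene GR1 rose from 59.4 ± 2.93 to 72.2 ± 1.76 CPM (0.28 with SE 0.05, edgeR adjusted p = 5.7e-05) and overlaps AT3G24160 on the opposite strand and AT3G24180 on its own. The glutathione synthesis gene GSH1 rose from 280.6 ± 8.08 to 313.4 ± 6.03 CPM (0.16 with SE 0.03, edgeR adjusted p = 0.00012). NTRA, a thioredoxin reductase gene, rose by 0.22 on the log2 scale (SE 0.05, edgeR adjusted p = 0.000128).

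**Figure D5:**
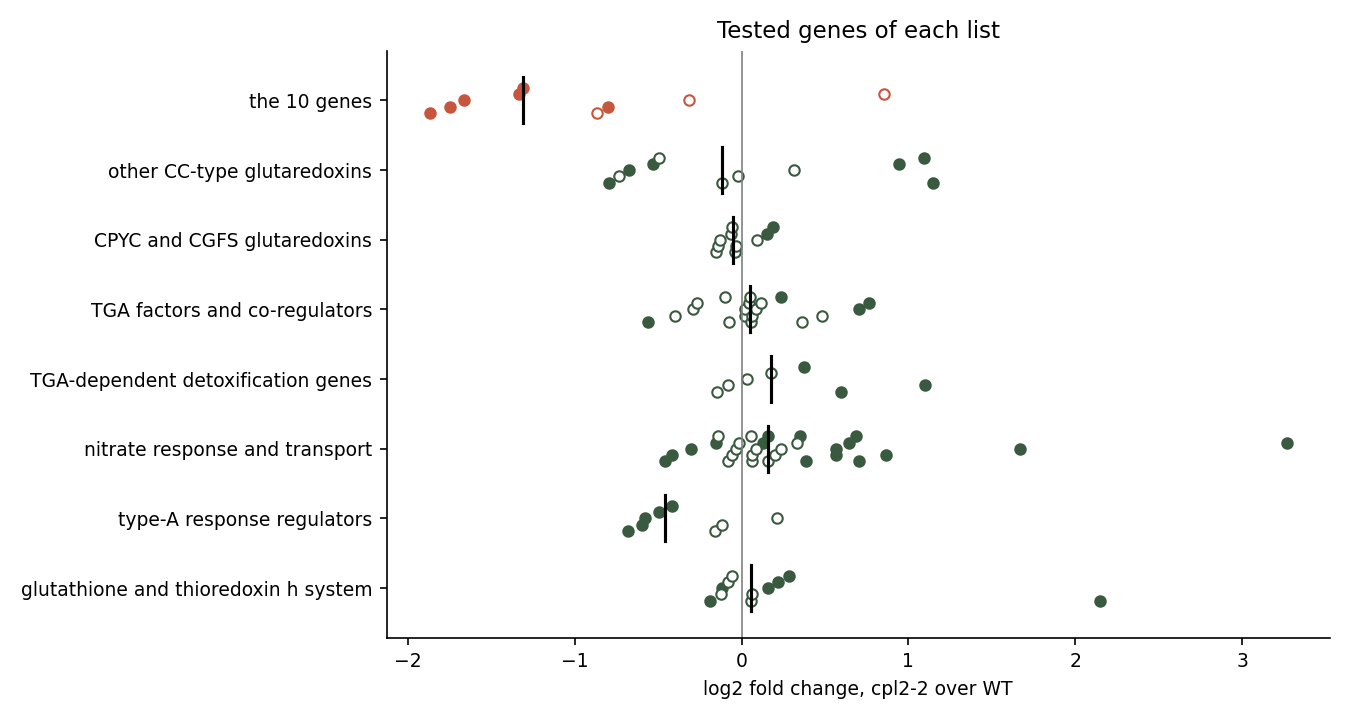
Log2 fold change of cpl2-2 over wild type (horizontal axis) for each tested gene of 8 lists, filled where called in edgeR, with the list's median as a black bar. The 9 tested of the 10 chosen genes have a median of -1.31 and the type-A response regulators one of -0.46.

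The 5 genes whose profile over the 6 libraries was nearest to that of the summed cluster were found among 17987 genes averaging at least 1 CPM. Likeness was the root mean square difference between log2 CPM profiles centred on their wild-type means. AT4G22513, of the lipid-transfer and seed storage protein superfamily, was nearest (0.116) and read 30.4, 29.02 and 29.6 CPM in wild type and 10.08, 9.96 and 9.22 CPM in cpl2-2. It overlaps AT4G22510 on the opposite strand. AT3G13270, annotated as a transposable element gene (0.137), the plant thionin gene AT1G66100 (0.148), the TRAF-like gene AT2G32880 (0.149) and the Toll-interleukin-receptor domain gene AT1G72920 (0.152) came next. AT1G66100 was abundant, at 65.1 ± 0.842 CPM in wild type and 22.9 ± 1.52 CPM in cpl2-2. None of these 5 is a glutaredoxin gene. Being chosen for their likeness, they carry no test.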

How the data were processed

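The authors deposited 1 table of raw read counts per gene for 6 libraries; the counts are whole numbers, with no normalization. The submitters' processing notes name the aligner HISAT2 2.0.5 and the build TAIR10. The library kit keeps strand, per the labels' protocols. Not given in the sources used here are the counting program, its strand setting and the release of the annotation. Library totals of 18299294 to 21098728 counts put 1 CPM at about 20 counts. The design text calls the replicates biological.

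Genes passing edgeR's filterByExpr (19302 of 38192) received TMM factors and entered edgeR's quasi-likelihood test (edgeR version 4.0.16 under R 4.3.3) with genotype as the single term, adjusted by Benjamini-Hochberg over all genes tested. On counts simulated for this comparison over 19302 genes, 88.5% of 200 genes changed by 1 on the log2 scale were recovered, with 12 false calls. In the data 5277 genes were called, far more than were changed in the simulation. The recovery is also 1 figure over all levels, so it does not hold for genes with few counts. Levels used the same factors. Profiles are log2 CPM values to which a prior count of 2 was added. Alternatives were library totals, DESeq2 size factors, no filter, a replicate block, DESeq2 1.42.0, limma-voom 3.58.1 and each library left out.

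The members and lists were chosen with earlier results of these data known. Named genes are the 10 members, the other 11 CC-type genes, CPL2 and the 5 nearest profiles. Up to 4 called genes with the smallest p per list were also named. BT2, HHO3, LBD37, NRT1.1, TPL, TPR2, ARR15, AT4G15610, AT4G15620 and the marker genes were named after their values were seen. Gene names come from the deposited descriptions and from RefSeq's TAIR10.1 table, where 98.4% of identifiers matched. Coordinates were the same for 37566 of 37570 shared nuclear genes (99.99%), so sequences were read from TAIR10.1 (Biopython 1.88). Windows of 50, 100 and 150 bases were searched genome-wide for exact matches.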

Additional observations from a re-analysis of the deposited data

How the results depend on the processing

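Counts of genes called in each list and the fold changes of the 9 tested members were recomputed under every alternative, and the summed cluster difference under other scalings, the replicate block and each library left out; no fold change or difference changed direction. AT4G15670 has a fold change only from the fit without the filter. For the CPYC and CGFS genes, the 2 called higher became 1 with DESeq2 size factors, without the filter, with the replicate block and in DESeq2 (1 to 2 when a library was left out). The 0 called lower became 1 without the filter and with the replicate block (0 to 1 when a library was left out). With library totals, which shifted the median log2 fold change by 0.068, 1 type-A response regulator and 1 neighbour of the cluster rose, the neighbours that fell went from 2 to 1, and so did the glutathione and thioredoxin h genes that fell. With a library left out, TGA genes called lower were 0 to 1, type-A regulators called higher 0 to 1, neighbours called higher 0 to 1 and neighbours called lower 1 to 2; the summed cluster difference ran from -1.68 to -1.44. The cause was not tested. All genes called were 5277, and 4524 to 4832 with a library left out.

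The labels do not say whether libraries with the same replicate number were handled together. Correlations of deviations between same-numbered libraries were -0.012, 0.01 and 0.013, so no shared deviation was seen. The replicate block moved no other list's count by over 1.5 times, and 6 members were called lower with it. The members called lower were 5 in DESeq2 and without WT replicate 3, cpl2-2 replicate 2 or cpl2-2 replicate 3, where AT4G15660 was lost, and 7 without cpl2-2 replicate 1, where AT5G14070 was added. Depth limits AT4G15660, AT4G15670, AT1G28480, AT3G02000 and AT5G14070, with 0 to 33 counts a library.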
